A study of Homo sapiens with 6 samples.

Results

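The 52 genes described here were nearly silent in NCI-H69 cells given the vehicle DMSO and were clearly detected in cells given GNF5. They were selected on these levels from all 60671 annotated genes. CPM is the count of a gene per 1000000 counts of its library. A gene was chosen where the mean was at least 1 CPM over 3 GNF5 libraries and under 1 CPM over 3 DMSO libraries, the ratio of these means was at least 4, and every GNF5 value lay above every DMSO value. The choice itself therefore used the levels and the ratios given below, which stand as a description and carry no test.

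NCI-H69 is an established human line of small cell lung cancer, neuroendocrine in kind and labelled as wild type in genotype. The tested cells received GNF5, an allosteric inhibitor of the ABL kinases that binds their myristoyl pocket, for 48 h, and the others received DMSO for the same time. Both groups grew in RPMI medium with fetal bovine serum and antibiotics. The sample labels give the dose as 20 µM while the protocol text gives the same number in millimolar, and the conflict is not settled by these sources. Total counts were 58771023, 46148701 and 52414089 in the GNF5 libraries and 56467189, 60697602 and 57885182 in the DMSO libraries, so that 3 counts corresponded to 0.0494 to 0.065 CPM. All libraries come from 1 line, and nothing in the labels says that the 3 libraries of a group came from separate cultures. Of 15 neuroendocrine markers, 14 had enough counts to test, and CALCA was at 0 in all 6 libraries. With GNF5, edgeR called 5 of the 14 higher and 4 lower, near the shares over all genes tested (31.0% higher, 30.7% lower). Among the abundant ones, INSM1 averaged 1466 CPM with GNF5 and 1400 CPM with DMSO, and CHGA 254 CPM with GNF5 and 246 CPM with DMSO, while SCG2 was higher (432 CPM with GNF5, 207 CPM with DMSO) and GRP lower (18.7 CPM with GNF5, 44.0 CPM with DMSO).

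A gene that is nearly silent in a cell line is often one whose main site of expression is another tissue, where lineage factors open its promoter. The genes of the set do not form a single pathway. They include proteins known from liver, pancreas, kidney, heart, leukocytes, hair, inner ear and testis, and some genes known from stress responses or from growth control in many cells.

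Of the 60671 genes, 45217 had a mean under 1 CPM with DMSO, and 22690 of these had no count in any of the 6 libraries. Only 474 of the 45217 averaged at least 1 CPM with GNF5, and most of them moved little, since 205 had a ratio of at least 2 and 53 a ratio of at least 4. The rule took 52 of the 474, or 11.0%. With GNF5 and DMSO exchanged, the same limits took 111 of 562 genes, or 19.8%, so more genes passed in the direction of lower levels with GNF5. Over the 20734 genes with enough counts for edgeR's quasi-likelihood test, 31.0% were called higher and 30.7% lower with GNF5 at a Benjamini-Hochberg adjusted p under 0.05, and the GNF5 values lay above all DMSO values in 33.7%. All 52 genes of the set were among those tested and were called higher, which the way of choosing them largely fixes.

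None of the 52 genes was at 0 in any DMSO library. The smallest total was that of TRPV6, with 3, 7 and 2 counts in the DMSO libraries, and the largest was that of STOML3, with 168 counts over the 3 DMSO libraries. "Nearly silent" thus fits the DMSO libraries better than "silent". With GNF5 the totals over 3 libraries ran from 161 counts for SNPH to 3279 for OSCAR. The mean level ran from 1.01 to 20.8 CPM with GNF5, with a median of 2.48 CPM, and from 0.0677 to 0.952 CPM with DMSO, with a median of 0.399 CPM. The ratio ran from 4.03 to 26.8 with a median of 7.12, and 13 genes had a ratio of at least 10. In bulk RNA, a few cells with much of a transcript and many cells with little of it cannot be told apart.

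The levels remained modest with GNF5. Per kilobase of exon, the genes of the set had a median of 0.746 CPM with GNF5, against 2.73 CPM for all 20734 genes tested. By this length-adjusted level the median gene of the set stood above 30.2% of the genes tested with GNF5 and above 6.83% of them with DMSO. OSCAR was the most abundant per length, above 75.9% of the genes tested with GNF5, and NLRC5 the least, above 7.9%. Together the 52 genes took 218, 205 and 211 CPM in the GNF5 libraries and 20.2, 23.2 and 23.7 CPM in the DMSO libraries.

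**Figure D1:**
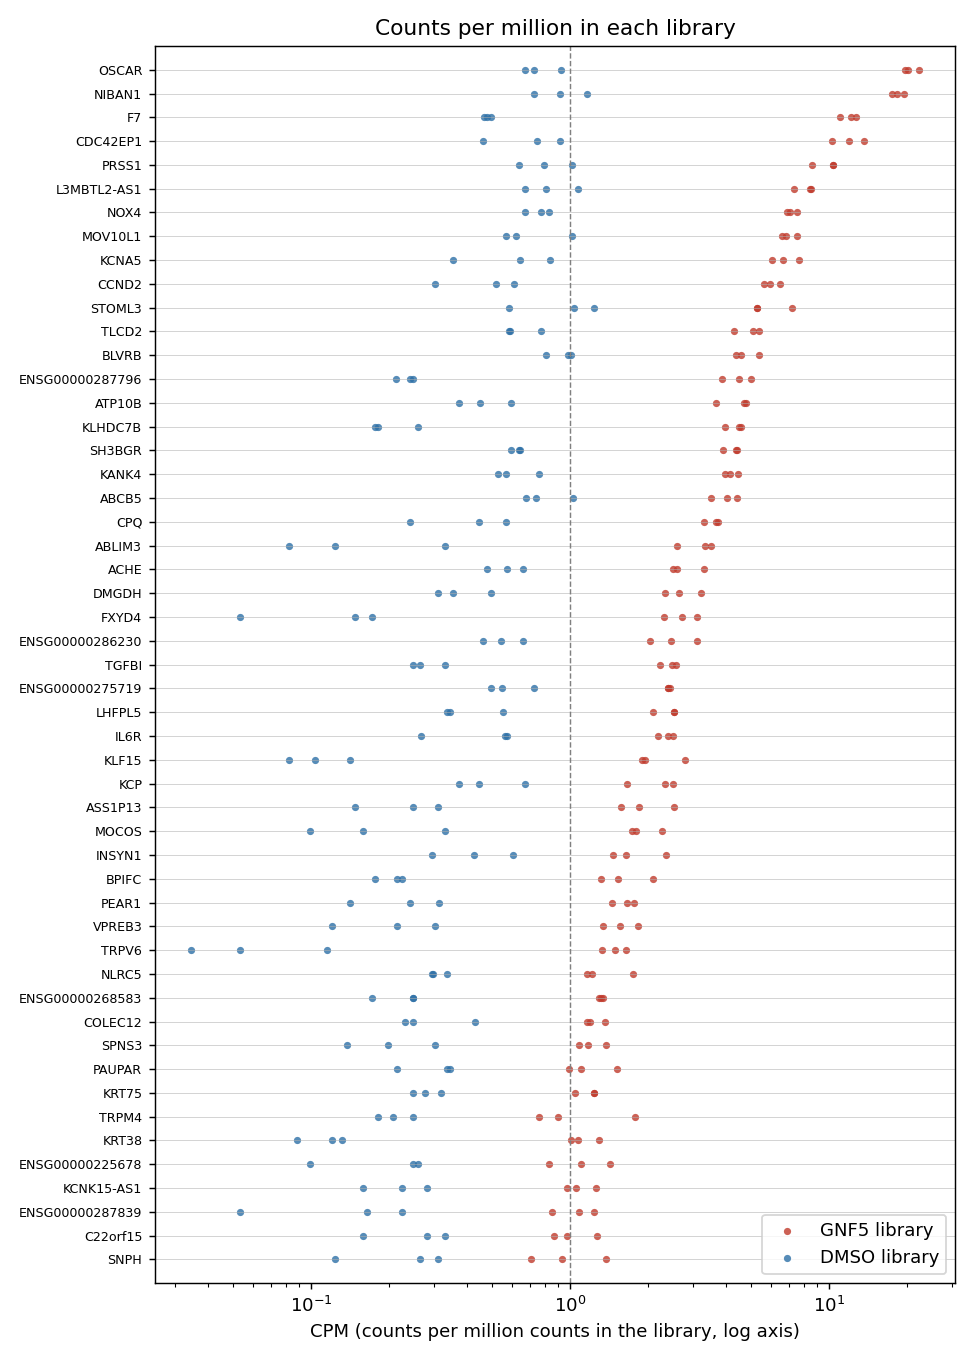
Level of 51 of the 52 genes in every library, in CPM on a log axis, with 1 point per library (red, GNF5; blue, DMSO) and genes ordered by their mean with GNF5. For every gene shown the 3 red points lie to the right of the 3 blue points, as the rule demands, and the dashed line marks 1 CPM.

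**Figure D2:**
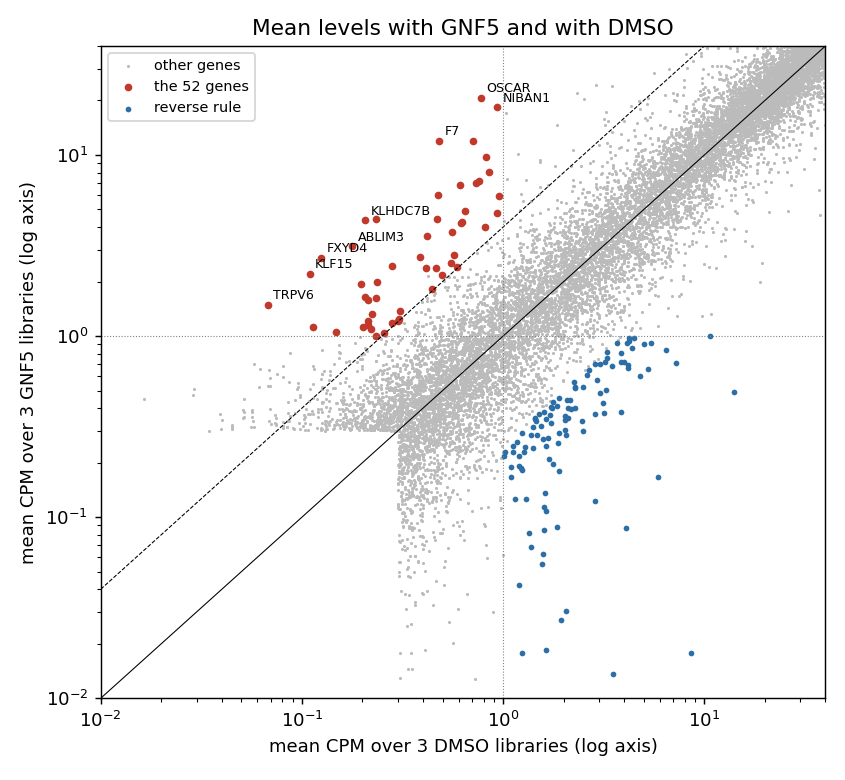
Mean CPM over the 3 GNF5 libraries (vertical, log axis) against mean CPM over the 3 DMSO libraries (horizontal, log axis), with 1 point per gene and with genes lower than about 0.3 CPM in both groups left out. Red points are the 52 genes, blue points the 111 genes taken by the exchanged rule, the solid line marks equal levels, the dashed line a ratio of 4 and the dotted lines 1 CPM.

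Sequence upstream of the start is shown for 4 genes, because 2 of them held the element bound by heterodimers of C/EBP and ATF factors, 1 of these with a TATA box, and the other 2 were among the most abundant genes of the set and had GC boxes and neither of these elements. A promoter of 300 bases, from 250 before to 50 after the annotated start, was found in RefSeq (GRCh38.p14) for 33 of the 52 genes. PRSS1, KLHDC7B, NIBAN1 and CDC42EP1 lie at chr7:142749222-142749521 on the plus strand, chr22:50545649-50545948 on the plus strand, chr1:184974459-184974758 on the minus strand and chr22:37560230-37560529 on the plus strand. Each is written 5′ to 3′ on the strand of the gene. Capitals mark the C/EBP-ATF element and the TATA box in PRSS1, the C/EBP-ATF element in KLHDC7B, and GC boxes in NIBAN1 and CDC42EP1.
PRSS1: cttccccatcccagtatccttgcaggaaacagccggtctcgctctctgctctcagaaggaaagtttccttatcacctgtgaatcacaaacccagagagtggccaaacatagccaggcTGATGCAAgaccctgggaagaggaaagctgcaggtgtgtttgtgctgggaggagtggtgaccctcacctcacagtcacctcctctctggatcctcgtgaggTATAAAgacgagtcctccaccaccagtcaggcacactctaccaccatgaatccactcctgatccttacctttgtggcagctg
KLHDC7B: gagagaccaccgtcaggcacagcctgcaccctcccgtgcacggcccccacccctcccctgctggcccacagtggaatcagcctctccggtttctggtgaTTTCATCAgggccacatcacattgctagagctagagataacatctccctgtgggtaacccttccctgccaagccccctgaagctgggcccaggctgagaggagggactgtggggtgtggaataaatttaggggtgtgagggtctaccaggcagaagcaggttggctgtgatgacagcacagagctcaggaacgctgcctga
NIBAN1: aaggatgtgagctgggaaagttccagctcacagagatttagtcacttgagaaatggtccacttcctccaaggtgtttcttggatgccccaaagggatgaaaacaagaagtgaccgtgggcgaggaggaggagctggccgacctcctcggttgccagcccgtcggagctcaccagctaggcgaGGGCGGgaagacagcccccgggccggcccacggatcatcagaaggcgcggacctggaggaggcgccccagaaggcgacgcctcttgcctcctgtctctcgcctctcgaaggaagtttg
CDC42EP1: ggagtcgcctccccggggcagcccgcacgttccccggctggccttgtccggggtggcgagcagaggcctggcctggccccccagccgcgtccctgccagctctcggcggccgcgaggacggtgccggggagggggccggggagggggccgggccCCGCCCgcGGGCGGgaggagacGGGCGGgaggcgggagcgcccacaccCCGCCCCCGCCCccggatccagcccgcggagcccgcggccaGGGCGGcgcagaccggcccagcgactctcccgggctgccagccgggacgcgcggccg

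In these stretches, positions count from the RefSeq start, with -1 the base just before it. PRSS1 had TGATGCAA at -133 and TATAAA at -32, a usual place for a TATA box. KLHDC7B had the C/EBP-ATF element on the other strand, as TTTCATCA at -151. NIBAN1 had a single GC box at -68, and CDC42EP1 had 6 GC boxes between -96 and -7 in a promoter of 83.7% G and C. A match is a run of letters and not a measured binding site.

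Immune receptors and signalling genes made up 7 of the 52, with ratios from 4.09 to 26.8. OSCAR, an immunoglobulin-like collagen receptor of osteoclasts and myeloid cells (ENSG00000170909), had the highest level and the highest ratio of the set. It stood at 22.3, 20.2 and 19.7 CPM in the GNF5 libraries and at 0.673, 0.923 and 0.726 CPM in the DMSO libraries, a ratio of 26.8. The lowest GNF5 library was more than an order of magnitude above the highest DMSO library. FCER1G, the adaptor through which OSCAR signals in myeloid cells, was not there at any comparable level, at 0.0849 CPM with GNF5 and 0.0453 CPM with DMSO. The myeloid adaptor TYROBP was at 0 in all 6 libraries.

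IL6R, the ligand-binding chain of the interleukin-6 receptor, averaged 2.36 ± 0.153 CPM with GNF5 and 0.465 ± 0.173 CPM with DMSO (SD, n = 3 libraries each, as for all means below). Its signalling partner IL6ST averaged 0.348 ± 0.134 CPM with GNF5 and 0.512 ± 0.153 CPM with DMSO and was not called (adjusted p = 0.159, edgeR). NLRC5, a regulator of MHC class I genes, averaged 1.38 ± 0.327 CPM with GNF5 and 0.309 ± 0.0239 CPM with DMSO. Of class I genes that it is known to act on, HLA-B (0.45) and HLA-C (0.76) were called higher by these log2 fold changes and B2M lower (-0.11) in edgeR's test, and TAP1 was not called (adjusted p = 0.617). VPREB3, known from pre-B cells, averaged 1.58 ± 0.248 CPM with GNF5 and 0.212 ± 0.0901 CPM with DMSO. COLEC12, a scavenger receptor with a collagen-like stalk, had a ratio of 4.09, and PEAR1, a platelet and endothelial receptor, a ratio of 7.03.

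The next 6 genes encode secreted or extracellular proteins and proteases. F7, coagulation factor VII, a vitamin K-dependent protease made mainly by hepatocytes (ENSG00000057593), had 11.0, 12.8 and 12.2 CPM with GNF5 and 0.478, 0.494 and 0.466 CPM with DMSO, a ratio of 25. Both groups were tight, with an SD of 0.899 CPM around 12.0 CPM with GNF5 and of 0.014 CPM around 0.48 CPM with DMSO. F10, which lies next to F7 in the genome and encodes the factor that VIIa activates, stayed at 0.0129 CPM with GNF5 and 0.0577 CPM with DMSO. Of the 18 genes of a liver and coagulation list, 17 averaged under 1 CPM with DMSO, and F7 alone crossed 1 CPM. Of 5 other genes of that list with enough counts for the test, SERPINA1 was called higher (1.78 CPM with GNF5, 1.19 CPM with DMSO, log2 fold change 0.58, SE 0.187, adjusted p = 0.00836, edgeR) and 1 lower.

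PRSS1, cationic trypsinogen of the pancreatic acinar cell (ENSG00000204983), had 8.63, 10.3 and 10.4 CPM with GNF5 and 0.638, 1.02 and 0.795 CPM with DMSO. Its near-identical paralogue PRSS2 averaged 8.57 ± 1.1 CPM with GNF5 and 9.63 ± 0.654 CPM with DMSO and was not called (adjusted p = 0.0870, edgeR). PRSS3, a further trypsinogen, was called higher (2.94 CPM with GNF5, 1.39 CPM with DMSO, log2 fold change 1.07, SE 0.156, adjusted p = 8.77e-07, edgeR). Reads shared by such copies are left out by the counting, so the split between PRSS1 and PRSS2 is uncertain. Of 14 acinar genes, 10 averaged under 1 CPM with DMSO, and PRSS1 was the only one of them to reach 1 CPM with GNF5. TGFBI, a matrix protein induced by TGF-beta in many cells, averaged 2.43 ± 0.175 CPM with GNF5 and 0.28 ± 0.0426 CPM with DMSO. CPQ, a secreted carboxypeptidase, averaged 3.57 ± 0.237 CPM with GNF5 and 0.418 ± 0.164 CPM with DMSO. KCP, a secreted protein that modulates BMP signalling, had a ratio of 4.36, and BPIFC, of the family of lipid-binding BPI proteins, a ratio of 8.04.

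Ion channels and transporters gave 7 genes with ratios from 4.91 to 22.1. KCNA5, a voltage-gated potassium channel of the atrium (ENSG00000130037), had 7.69, 6.05 and 6.64 CPM with GNF5 and 0.354, 0.84 and 0.639 CPM with DMSO. KCNA1, a family member encoded close to it, was already abundant and was called higher by a smaller step (472 CPM with GNF5, 277 CPM with DMSO, log2 fold change 0.76, SE 0.031, adjusted p = 3.51e-18, edgeR). KCNA6, in the same cluster, averaged 21.9 CPM with GNF5 and 20.6 CPM with DMSO. FXYD4, a regulator of the sodium pump known from kidney collecting duct, had 3.1, 2.71 and 2.31 CPM with GNF5 and 0.0531, 0.148 and 0.173 CPM with DMSO. Each DMSO value of FXYD4 rests on 10 counts or fewer. TRPV6, an epithelial calcium channel of intestine and placenta, had 1.65, 1.5 and 1.34 CPM with GNF5 and 0.0531, 0.115 and 0.0346 CPM with DMSO. Its ratio of 22.1 leaned on those few counts, and was 34.1 without DMSO replicate 2. Its paralogue TRPV5 had no count in any library.

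TRPM4, a calcium-activated cation channel, varied most between GNF5 libraries, with 1.79, 0.758 and 0.897 CPM, against 0.248, 0.181 and 0.207 CPM with DMSO. GNF5 replicate 1 alone lifted its mean above 1 CPM. ATP10B, a lipid-flipping P4-ATPase, averaged 4.4 ± 0.631 CPM with GNF5 and 0.471 ± 0.112 CPM with DMSO. ABCB5, an ABC transporter known from pigment cells and melanoma, averaged 4.0 ± 0.454 CPM with GNF5 and 0.815 ± 0.187 CPM with DMSO. SPNS3, of the spinster family of lipid transporters, had a ratio of 5.7.

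Redox and metabolic enzymes gave 5 genes. NOX4, an NADPH oxidase that is constitutively active and makes hydrogen peroxide, best known from kidney (ENSG00000086991), had 7.11, 6.87 and 7.56 CPM with GNF5 and 0.832, 0.774 and 0.674 CPM with DMSO. CYBA, the membrane partner that NOX4 needs, was called lower (21.9 CPM with GNF5, 31.7 CPM with DMSO, log2 fold change -0.54, SE 0.074, adjusted p = 2.81e-06, edgeR). BLVRB, a biliverdin and flavin reductase abundant in red cells, averaged 4.79 ± 0.517 CPM with GNF5 and 0.934 ± 0.11 CPM with DMSO. Its neighbours in haem breakdown, HMOX1 (0.59, SE 0.086, adjusted p = 7.97e-07) and BLVRA (0.48, SE 0.062, adjusted p = 1.2e-07), were called higher by smaller log2 fold changes in edgeR's test, and HMOX2, more abundant than HMOX1, was called lower (-0.32, SE 0.048, adjusted p = 1.46e-06). ACHE, acetylcholinesterase, averaged 2.79 ± 0.427 CPM with GNF5 and 0.569 ± 0.0904 CPM with DMSO. DMGDH, a mitochondrial enzyme of choline breakdown, averaged 2.73 ± 0.45 CPM with GNF5 and 0.386 ± 0.0958 CPM with DMSO. MOCOS, the sulfurase that completes the molybdenum cofactor, had a ratio of 9.9, which was 15 without DMSO replicate 3.

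Cytoskeletal genes and keratins gave 5 genes. CDC42EP1, an effector of the GTPase CDC42 that shapes actin (ENSG00000128283), had 13.7, 10.2 and 12.0 CPM with GNF5 and 0.744, 0.461 and 0.916 CPM with DMSO, a ratio of 17. Of its family, CDC42EP4 (-0.28 on the log2 scale, SE 0.035, adjusted p = 6.33e-08) and CDC42EP2 (-0.71, SE 0.174, adjusted p = 0.00084) were called lower and CDC42EP3 higher (0.15, SE 0.037, adjusted p = 0.000842) by edgeR, and CDC42EP5 averaged 0.486 CPM with GNF5 and 0.437 CPM with DMSO. ABLIM3, an actin-binding LIM protein, had 3.52, 3.32 and 2.59 CPM with GNF5 and 0.124, 0.0824 and 0.328 CPM with DMSO. DMSO replicate 3 held most of its DMSO counts, and the ratio of 17.6 was 30.5 without it. KANK4, an adaptor between adhesions and the cytoskeleton, averaged 4.2 ± 0.257 CPM with GNF5 and 0.618 ± 0.125 CPM with DMSO. The hair keratins KRT75 and KRT38 reached 1.18 ± 0.109 and 1.13 ± 0.152 CPM with GNF5, against 0.281 ± 0.036 and 0.114 ± 0.0225 CPM with DMSO.

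Genes of stress, cell cycle, transcription and RNA gave 4 genes with a median ratio of 16.1. NIBAN1, a protein induced by endoplasmic reticulum stress and known to affect translation (ENSG00000135842), had 19.5, 17.5 and 18.3 CPM with GNF5 and 0.726, 1.17 and 0.916 CPM with DMSO. Its paralogue NIBAN2 was called lower (-0.70 on the log2 scale, SE 0.036, adjusted p = 7.73e-16, edgeR). CCND2, cyclin D2, a partner of CDK4 and CDK6 in the passage through G1 (ENSG00000118971), had 5.9, 6.48 and 5.61 CPM with GNF5 and 0.301, 0.61 and 0.518 CPM with DMSO. CCND1 averaged 37.3 CPM with GNF5 and 36.8 CPM with DMSO and was not called (adjusted p = 0.803), CCND3 was called lower (-0.62, SE 0.056, adjusted p = 1.55e-10) and CDK6 higher (0.91, SE 0.045, adjusted p = 1.82e-16) in edgeR's test. CCND2 thus stayed below both other D-type cyclins in CPM in all 6 libraries. KLF15, a zinc-finger factor of metabolic and glucocorticoid programmes, had 2.79, 1.91 and 1.95 CPM with GNF5 and 0.142, 0.0824 and 0.104 CPM with DMSO.

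MOV10L1, a helicase that binds piRNA precursors in germ cells (ENSG00000073146), had 6.82, 6.61 and 7.54 CPM with GNF5 and 0.567, 1.02 and 0.622 CPM with DMSO. Its somatic paralogue MOV10 was called higher (23.0 CPM with GNF5, 10.4 CPM with DMSO, log2 fold change 1.13, SE 0.066, adjusted p = 8.67e-15, edgeR). Of the PIWI proteins of that pathway, PIWIL1 had no count in any library, PIWIL2 was called higher (0.582 CPM with GNF5, 0.124 CPM with DMSO, 2.19 on the log2 scale, SE 0.429, adjusted p = 6.36e-05), and so was PIWIL4 (2.16 CPM with GNF5, 1.13 CPM with DMSO, 0.93, SE 0.176, adjusted p = 3.98e-05), both by edgeR. TDRD1, a Tudor protein of the same pathway, went the other way and met the exchanged rule (0.137 CPM with GNF5, 1.61 CPM with DMSO). A list of 17 testis germ line and cancer-testis genes had 2 with enough counts to test, and both were called lower.

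Neuronal and sensory proteins gave 4 genes with ratios from 4.13 to 6.23, among the smaller of the set. STOML3, a stomatin-like protein of touch-sensing neurons, had 7.23, 5.27 and 5.3 CPM with GNF5 and 0.584, 1.24 and 1.04 CPM with DMSO. LHFPL5, part of the hair-cell channel complex for sound, averaged 2.38 ± 0.24 CPM with GNF5 and 0.412 ± 0.122 CPM with DMSO. INSYN1, of inhibitory synapses, averaged 1.82 ± 0.462 CPM with GNF5 and 0.441 ± 0.155 CPM with DMSO, and SNPH, syntaphilin, which anchors axonal mitochondria, 1.01 ± 0.342 CPM with GNF5 and 0.233 ± 0.0972 CPM with DMSO.

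Among the 4 coding genes with a less defined role, KLHDC7B, a kelch-domain protein, stood out by its ratio of 21.2, with 4.51, 3.97 and 4.6 CPM with GNF5 and 0.177, 0.181 and 0.259 CPM with DMSO. Its paralogue KLHDC7A went the other way and met the exchanged rule, with 0.285 CPM with GNF5 and 2.06 CPM with DMSO. TLCD2 averaged 4.92 ± 0.541 CPM with GNF5 and 0.649 ± 0.109 CPM with DMSO, and SH3BGR, known from heart and muscle, 4.24 ± 0.292 CPM with GNF5 and 0.623 ± 0.0261 CPM with DMSO. For SH3BGR, 62.8% of the exon bases also belong to a read-through gene on the same strand, and reads there are left out by the counting. C22orf15 had a ratio of 4.07.

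The other 10 genes are non-coding RNAs, pseudogenes or genes without a symbol. L3MBTL2-AS1, antisense to the chromatin gene L3MBTL2, had 7.35, 8.52 and 8.43 CPM with GNF5 and 0.673, 0.807 and 1.07 CPM with DMSO. Its sense partner was called lower (-0.35 on the log2 scale, SE 0.041, adjusted p = 1.61e-08, edgeR), and the antisense count was 16.5% of the sense count with GNF5, against 1.36% with DMSO. The counting used strand. ENSG00000287796, on chromosome X, averaged 4.45 ± 0.572 CPM with GNF5 and 0.234 ± 0.0187 CPM with DMSO, a ratio of 19.0. ENSG00000275719 stood apart from L3MBTL2-AS1 in its relation to the other strand. It shares 63.5% of its exon bases with SLC1A5, a glutamine carrier that was called higher (190 CPM with GNF5, 43.2 CPM with DMSO, log2 fold change 2.13, SE 0.039, adjusted p = 4.83e-26, edgeR). The count of ENSG00000275719 was 1.27% of that of SLC1A5 with GNF5 and 1.36% with DMSO, and whether it arises from its own transcript was not tested.

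ASS1P13 is a processed pseudogene of ASS1, which encodes argininosuccinate synthase. It had 1.58, 2.51 and 1.85 CPM with GNF5 and 0.248, 0.148 and 0.311 CPM with DMSO. The parent gene averaged 655 CPM with GNF5 and 111 CPM with DMSO and was called higher (2.56 on the log2 scale, SE 0.038, adjusted p = 7.71e-28, edgeR), and the pseudogene copies ASS1P11 (1.96, SE 0.249, adjusted p = 9.1e-08) and ASS1P1 (1.05, SE 0.307, adjusted p = 0.00412) were called higher too. Reads of near-identical copies can be misassigned, so the value of ASS1P13 is uncertain. PAUPAR, an antisense RNA beside PAX6, averaged 1.2 ± 0.275 CPM with GNF5 and 0.299 ± 0.0734 CPM with DMSO, and PAX6 was called higher by 0.37 on the log2 scale (SE 0.061, adjusted p = 6.73e-06, edgeR). KCNK15-AS1 averaged 1.1 ± 0.147 CPM with GNF5 and 0.221 ± 0.0604 CPM with DMSO beside KCNK15, which was called higher by 1.46 (SE 0.186, adjusted p = 8.75e-08, edgeR). The remaining genes, ENSG00000286230, ENSG00000268583, ENSG00000225678 and ENSG00000287839, had ratios of 4.58, 5.93, 5.56 and 7.17.

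By type, 42 of the 52 genes (80.8%) were protein coding, against 60 of the 111 genes of the exchanged rule (54.1%), 48.7% of the 474 genes that crossed 1 CPM and 69.6% of all genes tested. By usual place of expression, from textbook knowledge, 7 of the 42 coding genes are known mainly from liver, pancreas, kidney or intestine, 5 from neurons, inner ear or other sensory cells, 4 from leukocytes or osteoclasts, 3 from skin, hair or pigment cells, 3 from endothelium, platelets or red cells, 2 from heart or muscle and 1 from the male germ line. The other 17 are broad or were not placed.

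Marker lists of 20 tissues and cell types, 287 genes in all, were read for company of the same kind. Of these, 209 averaged under 1 CPM with DMSO and 5 crossed 1 CPM with GNF5, of which OSCAR, F7, PRSS1 and KCNA5 belong to the set. No list gave more than 1 gene to the set. The other tested genes of the lists that gave a member went in differing directions by edgeR. In the muscle list 0 of 7 were called higher and 5 lower, and in the acinar list 0 of 4 higher and 2 lower. In the liver list 1 of 5 was called higher and 1 lower, and in the myeloid and osteoclast list 3 of 5 higher and 0 lower. In the opposite direction, 5 list genes met the exchanged rule, among them the lymphoid marker PTPRC and the airway ciliary factor FOXJ1. In the myeloid and osteoclast list, the summed level was 41.5 to 45.7 CPM with GNF5 and 6.25 to 6.64 CPM with DMSO, and OSCAR and LAMP3 made up most of it with GNF5. LAMP3, a lysosomal protein of dendritic cells, averaged 17.0 CPM with GNF5 and 1.03 CPM with DMSO and missed the set only through the limit on the DMSO level.

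Lists of stress and signalling genes gave the set no member. Targets of ATF4, the transcription factor of the integrated stress response, were called higher in 31 of 33 cases, with 1 lower and a median log2 fold change of 1.36, against 31.0% called higher, 30.7% lower and a median of 0.01 over all genes tested. None of the 33 was near-silent with DMSO, so none could enter the set. Of 22 genes of the unfolded protein response, 21 were called higher and 1 lower, with a median of 0.58, and again none averaged under 1 CPM with DMSO. Of 7 metallothioneins tested, 6 were called higher and 1 lower, with a median of 1.77, and of 20 p53 targets 3 were called higher and 10 lower, with a median of -0.19.

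The 52 genes were spread over 19 of the 23 chromosomes that were counted. Chromosome 22 held 7 of them, CDC42EP1, L3MBTL2-AS1, MOV10L1, KLHDC7B, BPIFC, VPREB3 and C22orf15, which is 13.5% of the set, while 2.68% of the genes tested lie on it. That is 12.6 genes of the set per 1000 tested on chromosome 22 and 2.52 per 1000 over the genome. Of the 549 genes tested on chromosome 22 that are not in the set, 28.1% were called higher, against 31.0% of all genes tested. Chromosome 19 held 6 genes and chromosomes 1 and 7 held 5 each, and chromosomes 2, 4, 9 and 14 held none.

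**Figure D3:**
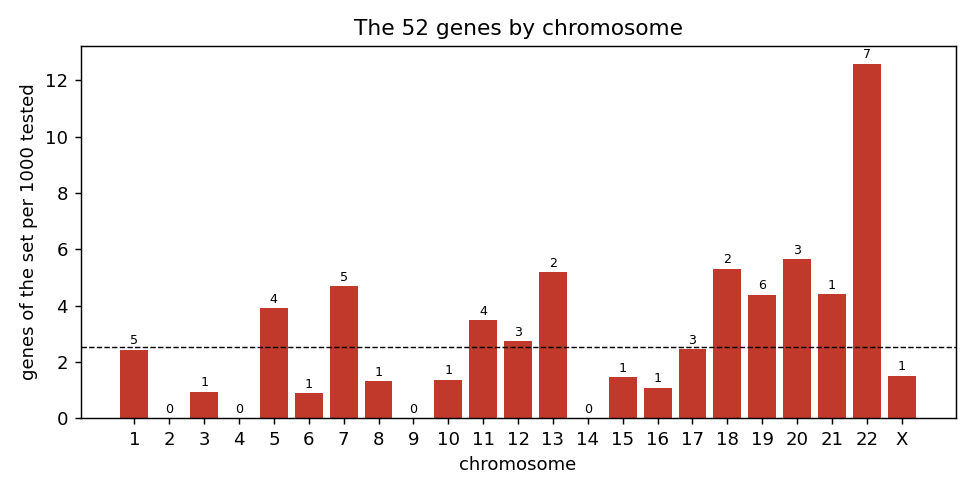
Genes of the set per 1000 genes tested on each chromosome, with the number of genes above each bar and the genome-wide value of 2.52 as a dashed line. Chromosome 22, with 7 genes, has the tallest bar at 12.6.

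The genes on chromosome 22 did not sit in a single block. VPREB3 and C22orf15 were the only members of the set within 100 kb of each other, 8564 bases apart and transcribed away from each other. MOV10L1 and KLHDC7B were 384208 bases apart. On chromosome 7, PRSS1 and TRPV6 were 118131 bases apart, and on chromosome 12, KCNA5 and CCND2 were 738525 bases apart. VPREB3 had 1.84, 1.34 and 1.56 CPM with GNF5 and 0.301, 0.214 and 0.121 CPM with DMSO, and C22orf15 had 0.868, 0.975 and 1.28 CPM with GNF5 and 0.159, 0.28 and 0.328 CPM with DMSO. C22orf15 overlaps CHCHD10 on the other strand, which was called higher (176 CPM with GNF5, 56.8 CPM with DMSO, log2 fold change 1.63, SE 0.042, adjusted p = 8.49e-23, edgeR).

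The nearest tested genes on each side and those overlapping on the other strand were examined next, since the rule did not use them. Within 100 kb there were 96 such neighbours, leaving out members of the set. Of these, 47 (49.0%) were called higher and 21 (21.9%) lower with GNF5 by edgeR, against 31.0% and 30.7% of all genes tested. Within 50 kb, 42 of 77 (54.5%) were called higher. The sizes were mostly small, with a median log2 fold change of 0.18 within 100 kb, against 0.0057 over all genes tested. A log2 fold change of at least 1 was reached by 12 of the 96 and by 1047 of the 20734 genes tested. For at least 2 these counts were 3 and 188. Of the 13 that overlap a gene of the set, 7 were called higher and 5 lower.

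The 3 neighbours with a log2 fold change of at least 2 were SLC1A5, given above, PTPRH and ENSG00000256654. PTPRH, a receptor tyrosine phosphatase 4780 bases from ENSG00000286230, averaged 15.8 CPM with GNF5 and 3.19 CPM with DMSO (2.31, SE 0.101, adjusted p = 1.52e-17, edgeR). ENSG00000256654, 17866 bases upstream of KCNA5 on the same strand, averaged 43.7 CPM with GNF5 and 9.98 CPM with DMSO (2.12, SE 0.055, adjusted p = 9.16e-23, edgeR). It was thus several times as abundant in CPM as KCNA5 itself. JMY, a p53 cofactor that starts 92 bases from DMGDH on the opposite strand, was called higher by 1.28 (SE 0.047, adjusted p = 2.82e-19, edgeR).

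Shared direction was not the rule at every site. NDUFA3, a subunit of respiratory complex I that starts 35 bases from OSCAR on the opposite strand, averaged 42.0 CPM with GNF5 and 46.6 CPM with DMSO and was called lower by edgeR (-0.15, SE 0.054, adjusted p = 0.0168). LCA5L, 49 bases from SH3BGR, was not called (adjusted p = 0.475). Around ENSG00000225678, the overlapping pseudogene WTAPP1 (-3.40, SE 0.338, adjusted p = 8.63e-10) and the metalloproteinase gene MMP10 (-1.70, SE 0.080, adjusted p = 6.43e-17) were called lower by edgeR.

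**Figure D4:**
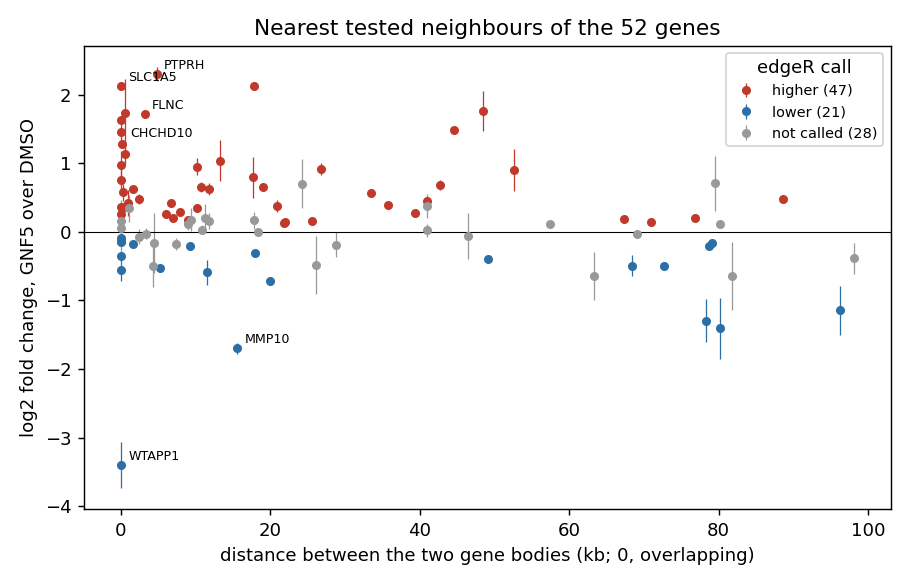
Log2 fold change, GNF5 over DMSO, of the 96 nearest or overlapping neighbours of the set within 100 kb, against the distance between gene bodies in kb (0, overlapping), with bars for the SE. Red points (47) were called higher, blue points (21) lower and grey points (28) were not called by edgeR.

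Exons of 19 of the 52 genes overlap a gene on the other strand and exons of 6 overlap a gene on the same strand. The relation to the other strand differed from site to site. For LHFPL5, which overlaps SRPK1, the count was 0.678% of that of SRPK1 with GNF5 and 0.110% with DMSO. For ENSG00000268583, opposite CARD8, it was 7.22% with GNF5 and 1.47% with DMSO, and for ENSG00000286230, opposite ENSG00000267649, 83.8% with GNF5 and 31.3% with DMSO. In these 3 cases the share on the other strand differed between the groups, as for L3MBTL2-AS1. For ENSG00000275719, which shares 63.5% of its exon bases with SLC1A5, the shares given above lay closer. For C22orf15, which shares only 1.42% of its exon bases with CHCHD10, the count was 0.590% of that of CHCHD10 with GNF5 and 0.452% with DMSO. Single libraries overlapped there between the groups, at 0.484% to 0.694% with GNF5 and 0.275% to 0.566% with DMSO.

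The starts of the 33 genes with a RefSeq promoter were GC-rich, with a median of 67.0% G and C, against 58.7% over all 35116 promoters of the table. An observed-to-expected CpG ratio of at least 0.6 was found in 63.6% of them and in 48.9% of all promoters. The GC box GGGCGG, read on both strands as were all motifs, was present in 24 of the 33 promoters (72.7%), against 45.0% of all promoters. A loose form of the NF-kB site, GGG and CC with any 5 bases between, can overlap GC boxes and was present in 69.7% of them and in 58.7% of all promoters. GC boxes are more frequent in GC-rich sequence, and no adjustment for composition was made. Most of the 33 belong to coding genes, and the comparison with all promoters was not limited to coding genes.

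Other motifs were at or below their share in all promoters or were present in very few. The C/EBP-ATF element TGATGNAA was found in PRSS1 and KLHDC7B only, 6.06% of the 33, against 3.62% of all promoters. The TATA box TATAAA was found in PRSS1, STOML3 and KRT38 (9.09%, against 11.5%), and the CCAAT box in 24.2%, against 34.6%. The TATA matches lay at -32 in PRSS1 and -30 in KRT38, but further upstream in STOML3, at -237 and -204. The cyclic AMP element TGACGTCA was found in MOV10L1 (3.03%, against 1.85%), the AP-1 site TGANTCA in IL6R, ATP10B and PRSS1 (9.09%, against 7.71%), and the E-box CACGTG in KLF15 (3.03%, against 7.26%). The hypoxia core ACGTG, which lies within every E-box of that form, was found in 12.1%, against 21.4%, and the ETS core CCGGAAG in 0 of 33, against 10.3%.

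**Figure D5:**
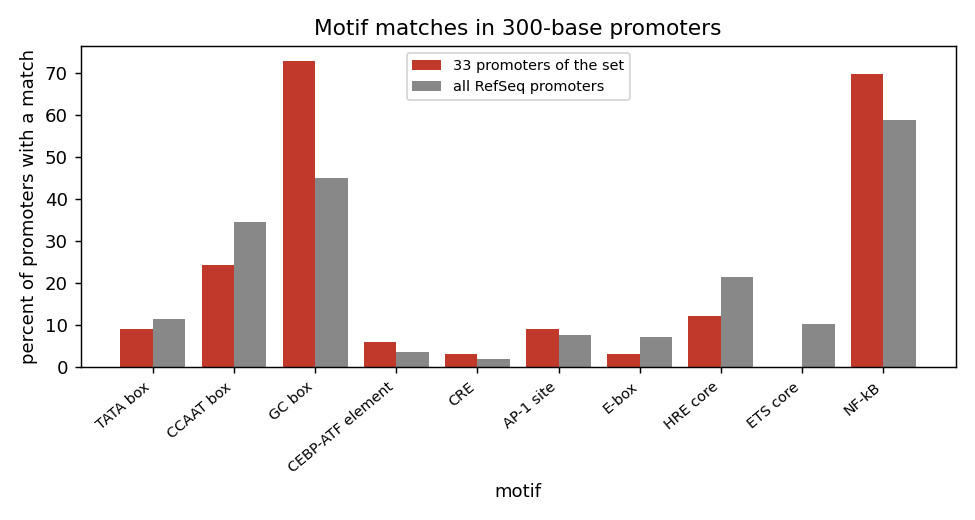
Percent of promoters with at least 1 match to each motif on either strand, for the 33 promoters of the set (red) and for all 35116 RefSeq promoters of the same length (grey). The GC box shows the widest gap, 72.7% in the set and 45.0% overall.

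The edge of the set was not sharp. Just above the ratio limit stood PAUPAR (4.03), C22orf15 (4.07) and ENSG00000275719 (4.07), and just below it AZGP1 (3.99), ENSG00000288018 (3.98) and PDLIM4 (3.97). At the GNF5 limit SNPH (1.01 CPM), C22orf15 (1.04 CPM) and ENSG00000287839 (1.06 CPM) were inside, and ENSG00000249328 (0.989 CPM), MEF2B (0.970 CPM) and SLC47A2 (0.914 CPM) outside. At the DMSO limit STOML3 (0.952 CPM), NIBAN1 (0.937 CPM) and BLVRB (0.934 CPM) were inside, and KLKP1 (1.01 CPM), LAMP3 (1.03 CPM) and EGFL6 (1.04 CPM) outside.

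To see the measure in libraries that the choice had not used, the rule was applied to 2 libraries per group and the genes were read in the remaining pair. Leaving out replicate number 1, 2 or 3, the rule took 57, 58 and 60 genes, of which 43, 46 and 49 belong to the 52. In the pair left out, GNF5 lay above DMSO for 57 of 57, 57 of 58 and 60 of 60 of them, against 50.1%, 51.1% and 51.3% of all genes tested. The ratio was at least 4 for 39, 42 and 42 of the genes taken. The median ratio in the pair left out was 6.87, 6.17 and 5.95. With 1 library per group left, no test was made. The libraries left out come from the same line and treatment and may not be separate cultures, so these counts describe only how alike the libraries are. The share over all genes tested includes genes without a difference and is not a like baseline for genes chosen by a wide gap.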

How the data were processed

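RNA sequencing was analysed for 3 GNF5 and 3 DMSO libraries of NCI-H69 cells, grouped by the treatment label. The deposited tables hold raw counts, 1 row per gene. The authors ran featureCounts 1.6.1 on read pairs, per the file headers, with the reverse-strand setting and exons from release 101 of Ensembl (GRCh38). Its default leaves out reads that map to several places or overlap several genes, so near-identical copies are undercounted. Per the submitters' processing notes, Trim Galore, STAR, HTSeq, DESeq2 and GRCh37 were also named, without roles, and the headers were followed. The build used for alignment is not settled by these sources.

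CPM was the count divided by the total of the file, times 1e+06, with the SD over 3 libraries. Depth ran from 46148701 to 60697602 counts, and limits drawn from 3 counts cover counting error only. All genes with enough counts, the set included, were tested with edgeR 4.0.16 in R 4.3.3, by its quasi-likelihood test (robust, TMM, default expression filter, 6 libraries, no covariate) with Benjamini-Hochberg adjustment over 20734 genes. Such p-values reflect the spread of these libraries, which may be technical. The SE was taken as the size of the log2 fold change over the root of F. The fit was tested on simulated counts. Symbols were found for 60401 of 60671 IDs, and gene types came from GENCODE release 29. Promoters and their start sites came from RefSeq on GRCh38.p14, and 19 genes of the set had no match.

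The members and lists were chosen with earlier results of these data known. Roles, usual tissues, paralogues, partners and the printed promoters were chosen after the members were known, and the last were picked for their motifs or level. The 25 coding genes and 6 others with the highest level, members near a limit, near each other or on a list were to be named; the rest are named so that the set is accounted for, and 1 gene of the 52 is counted but not reported here by name. Alternatives were other library scalings, other limits, levels per kilobase, libraries left out, DESeq2 1.42.0 and a replicate block.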

Additional observations from a re-analysis of the deposited data

How the results depend on the processing

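The set of 52 genes depends on its limits: a ratio of at least 3 gave 97 genes, a ratio of at least 8 gave 23, a DMSO level under 0.5 CPM gave 34 and a GNF5 level of at least 2 CPM gave 32. Levels per kilobase at the same limits gave 65 genes, of which 21 are in the set. Scaling by TMM gave 52, DESeq2 size factors 51, and totals without mitochondrially encoded genes 54. Leaving out each library in turn gave 53 to 59 genes for the rule and 99 to 119 for the exchanged rule, against 111. In those 6 choices 38 of the 52 genes were kept each time; NIBAN1, STOML3 and TRPM4 were among the 14 that were not. Same-numbered libraries showed no shared deviation (correlations -0.0157, 0.0159 and 0.00082), which does not settle whether the replicate numbers pair the samples. With the replicate block, a ratio of at least 4 within each number, 38 genes met the rule and 61 the exchanged rule, and edgeR called 6279 genes higher and 6196 lower, against 6426 and 6356. Leaving out each library gave 5926 to 6200 genes called higher and 5969 to 6212 lower. No gene of the set changed direction under TMM scaling or without any 1 library, but this is no check of the set. The rule puts every GNF5 value above every DMSO value, so leaving out a library cannot turn a direction. The largest shift of a ratio under TMM scaling was 1.005 times. Ratios that moved by over 1.5 times are given with ABLIM3, TRPV6 and MOCOS. Ratios of genes with few DMSO counts, such as TRPV6 and FXYD4, are the least precise.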
